A study of Rattus norvegicus with 6 samples.

Results

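miR-21 was followed in the testis of diabetic and normal rats through both of its mature strands, the 5p arm and the 3p arm, in 6 small RNA libraries. The members were the entries of the deposited miRNA table named rno-miR-21, rno-miR-21-5p or rno-miR-21-3p, which gave 2 of the 721 entries, 1 for each arm. The diabetic group held 3 libraries of testis tissue from Sprague-Dawley rats with diabetes induced by streptozotocin (STZ), which is toxic to the beta cells of the pancreas, and was profiled at week 8. The normal group held 3 libraries of testis tissue from Sprague-Dawley rats without STZ. The study's methods describe a high-fat diet followed by a single intraperitoneal STZ injection, with citrate buffer given to the controls, and do not state whether the controls were fed that diet. The rats were adult males, and no exact age is given. Each library was a separate labelled sample, and the labels do not name the animals, so p-values measure only the spread between these samples, which may be technical. Summed over the table, a library had 305476 to 549446 reads, and levels are given as CPM, reads scaled so that the listed miRNAs of a library add up to 1000000. The tissue label was checked with a pair of lists of miRNAs chosen for testicular germ cells. The second was chosen by ranges of miRNA numbers, and its entries were not checked for germ-cell expression one by one. One held 6 arms of miR-34b, miR-34c, miR-449a and miR-449c. The other held 27 arms of miR-463, miR-465, miR-471, miR-741, miR-743a, miR-743b, miR-871, miR-872, miR-874, miR-878, miR-879, miR-880, miR-881 and miR-883, and is called the miR-741 list here. With the other listed arms of miR-34 and miR-449 added, miR-34a among them, these lists made up the germ-cell set. The set took from 41.9% to 43.3% of reads in the diabetic libraries and from 40.0% to 44.9% in the normal libraries.

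A miRNA gene is transcribed as a hairpin, which the nucleases Drosha and Dicer cut to a short duplex. One strand of the duplex, the guide, is loaded into an Argonaute protein and pairs through its seed, the bases near its 5′ end, with target mRNAs, whereas the other strand is usually degraded. miR-21 is known as a stress-responsive miRNA of many tissues that favours cell survival, with the Pdcd4 transcript among its targets, and it has been studied in fibrosis and inflammation. In the testis it is known from spermatogonial stem cells, the self-renewing germ cells, where it supports survival.

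The sequences of both arms are shown because the strands differ so widely in abundance, with the seed (bases 2 to 8) in capitals. They were taken from RefSeq, build GRCr8, minus strand of chromosome 10.
rno-miR-21-5p: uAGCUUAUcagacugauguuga
rno-miR-21-3p: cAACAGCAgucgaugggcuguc
The hairpin that carries both arms follows, with the arms in capitals, the 5p arm first.
Mir21: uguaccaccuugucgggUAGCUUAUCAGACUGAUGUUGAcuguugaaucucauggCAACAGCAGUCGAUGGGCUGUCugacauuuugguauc
Each arm is 22 bases long, and 16 bases lie between them in the hairpin of 92 bases. The fold of lowest free energy (RNAfold, -42.6 kcal/mol) paired 19 of the 22 bases of the 5p arm with bases of the 3p arm. In the RefSeq gene table Mir21 lies between Tubd1 and Vmp1. Among the 692 other rat mature miRNA names of the same table, 0 shared the seed of miR-21-5p and 0 shared the seed of miR-21-3p. The nearest other mature sequence differed from miR-21-5p by 7 edits and from miR-21-3p by 8, so no near-identical sequence stood beside either arm in that table.

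miR-21-5p, the guide strand, was among the most abundant miRNAs of the testis. It stood at 45365, 40234 and 44467 CPM in diabetic replicates 1, 2 and 3 and at 53706, 48531 and 48345 CPM in normal replicates 1, 2 and 3. These levels stood for 13858, 14969 and 24432 reads in the diabetic libraries and for 23696, 23906 and 25629 reads in the normal libraries. The 3 diabetic values all lay below the 3 normal values, with diabetic replicate 2 lowest and normal replicate 1 highest. As a share of reads, miR-21-5p took 4.54%, 4.02% and 4.45% in the diabetic libraries, and 5.37%, 4.85% and 4.83% in the normal libraries. The exact 95% binomial interval of the lowest share was 3.96% to 4.09% and that of the highest was 5.30% to 5.44%. Intervals and read floors here cover counting error only, since no molecular identifiers were described. Counting error amounted to a coefficient of variation of 0.769% in the diabetic and 0.640% in the normal libraries, against 6.32% and 6.06% observed between libraries, so depth was not what limited the precision of miR-21-5p.

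**Figure D1:**
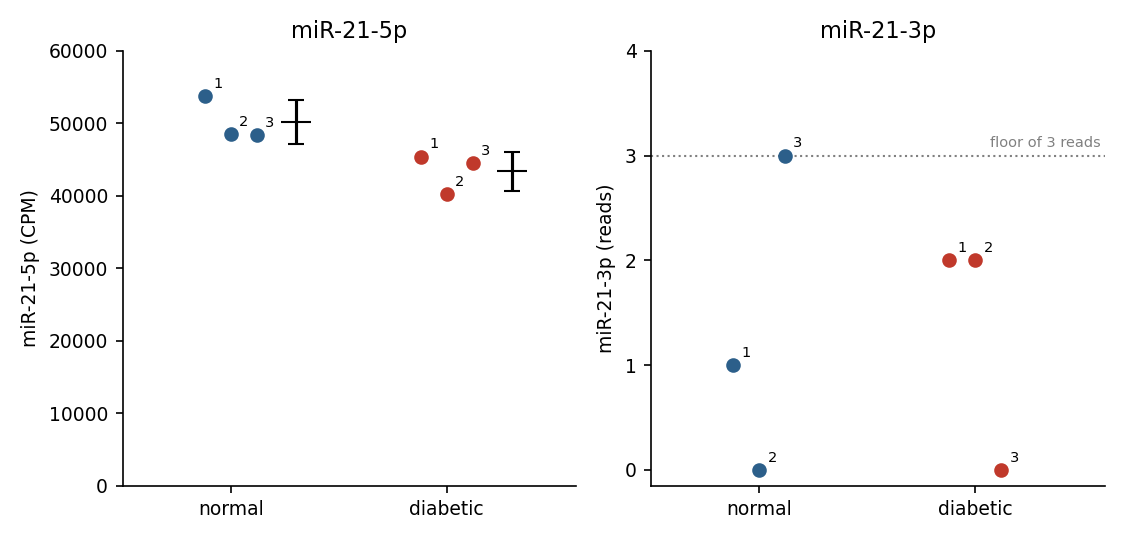
Level of miR-21-5p in CPM (left) and reads of miR-21-3p (right) in each library of the normal and diabetic groups, with replicate numbers beside the points and, for miR-21-5p, the mean ± SD of 3 libraries as a bar. The diabetic miR-21-5p values, 40234 to 45365 CPM, lie below the normal values, 48345 to 53706 CPM, and miR-21-3p does not pass 3 reads in any library.

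By mean CPM miR-21-5p ranked 3 of 721 entries, at 46775 CPM. In 5 libraries it ranked 3, behind miR-34c-5p, a miRNA of meiotic and later germ cells, and miR-143-3p, a miRNA of smooth muscle and peritubular cells. In diabetic replicate 3 it ranked 4, because miR-741-3p, of the miR-741 list, stood at 45080 CPM there. miR-34c-5p ranged over the 6 libraries from 268466 to 316725 CPM and miR-143-3p from 74472 to 93053 CPM, and neither range met that of miR-21-5p (40234 to 53706 CPM). The next entries down were miR-741-3p at 39318 CPM, miR-30a-5p at 32804 CPM and miR-449a-5p at 31284 CPM. miR-21-5p exceeded miR-741-3p in 5 of 6 libraries and miR-30a-5p and miR-449a-5p in 6 of 6. The order of miR-21-5p and miR-741-3p was therefore not fixed by their spread, which was 35878 to 45080 CPM for miR-741-3p. The most abundant entries are mature strands of like length, so CPM was compared between them without a length term. Other differences in how well a sequence is recovered in a library were not corrected for, here or between the arms.

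**Figure D2:**
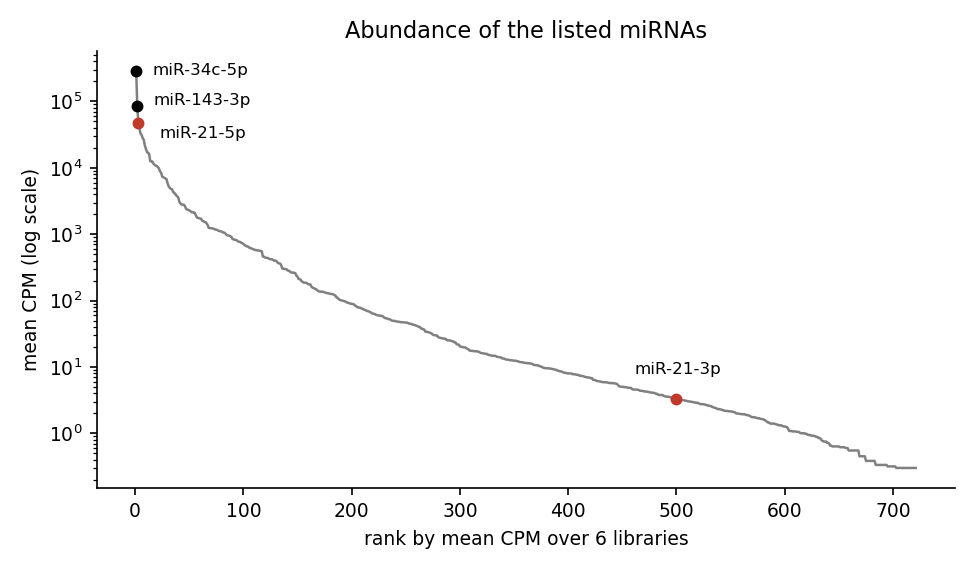
Mean CPM over the 6 libraries (log scale) against rank for the listed miRNAs, shown as a line, with both arms of miR-21 as red points and the 2 entries above miR-21-5p as black points. miR-21-5p ranks 3 at 46775 CPM and miR-21-3p ranks 499 at 3.32 CPM.

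The central comparison asked whether miR-21 differed between diabetic and normal testes. Values of both groups are given from here on as mean ± SD over n = 3 libraries, the diabetic group first and the normal group after the word against. miR-21-5p averaged 43355 ± 2740 against 50194 ± 3043 CPM, 13.6% lower in diabetes. The gap between the highest diabetic and the lowest normal library was 2979 CPM, smaller than the range of 5131 CPM within the diabetic group and of 5362 CPM within the normal group. On the log2(CPM + 1) scale miR-21-5p changed by -0.21 (SE 0.08), within a 95% interval from -0.39 to -0.04, which corresponds to 0.764-fold to 0.976-fold. The p-value in limma was 0.0220 before and 0.406 after Benjamini-Hochberg adjustment over 578 tested miRNAs, so the difference did not pass the adjusted threshold. By two-sided exact permutation p was 0.1, and 3 against 3 libraries cannot give a smaller one. In whole testis, fewer cells that hold miR-21 and less miR-21 per cell cannot be told apart.

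The background puts this in proportion. Of the 578 miRNAs, 0 (0%) had an adjusted p under 0.05 in limma, and with the edgeR and DESeq2 tests on recovered reads 2 and 1 did, miR-21-5p not among them. An unadjusted p under 0.05 with a lower diabetic level was found for 19 (3.29%), and with a higher level for 32 (5.54%). Groups that did not overlap, with diabetic below normal, were found for 40 (6.92%). miR-21-5p ranked 31 of 578 by p, and 3 among the 34 miRNAs with at least 0.1 of its mean CPM. Those 34 had a median log2 change of 0.04, and 3 of them were lower and 2 higher at an unadjusted p under 0.05. Because it was so abundant, the small relative change of miR-21-5p made the second largest fall in CPM of all entries, 17.9% of the summed falls over 352 entries with a lower diabetic mean.

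**Figure D3:**
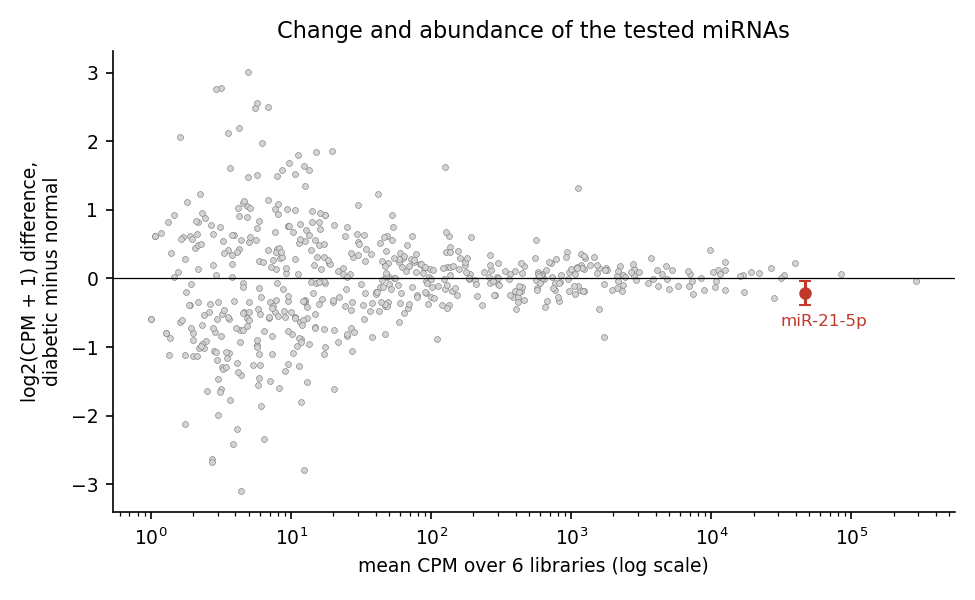
Difference in log2(CPM + 1), diabetic minus normal, against mean CPM (log scale) for the 578 tested miRNAs, with miR-21-5p in red and its 95% interval from limma as a bar. The miR-21-5p interval runs from -0.39 to -0.04, and the scatter of the other miRNAs widens as abundance falls.

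CPM depends on what else is in the library, so the share of miR-21-5p was recomputed over other totals. With miR-34c-5p taken out of the total the share was 6.08% ± 0.354 against 7.14% ± 0.537. With the germ-cell set taken out, it was 7.58% ± 0.443 against 8.77% ± 0.674. Over known miRNAs only, without the predicted entries, it was 4.37% ± 0.274 against 5.05% ± 0.306. In each case the 3 diabetic libraries lay below the 3 normal ones, and the exact permutation p was 0.1. The germ-cell set itself took 42.8% ± 0.728 against 42.7% ± 2.48 of reads, with an exact permutation p of 0.9.

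Ratios within a library do not depend on its total. miR-21-5p was set against 5 reference miRNAs, each linked with certain cell types, and the log2 ratios were compared by the two-sided exact permutation test. Against miR-126a-3p, an endothelial miRNA, miR-21-5p was 4.22, 3.88 and 3.55 times as abundant in diabetic replicates 1, 2 and 3 and 6.60, 4.89 and 6.59 times as abundant in normal replicates 1, 2 and 3. The diabetic ratios all lay below the normal ones, by 0.62 on the log2 scale (exact permutation p = 0.1; adjusted over 5 ratios, 0.5). miR-126a-3p itself stood at 11211 ± 1153 against 8471 ± 1329 CPM, so both terms of this ratio differed in mean. Against miR-143-3p the groups overlapped, with ratios of 0.488 to 0.532 in the diabetic and 0.522 to 0.673 in the normal libraries, a log2 difference of -0.28 (exact permutation p = 0.2). Against miR-34c-5p the log2 difference was -0.17 (exact permutation p = 0.3), or -0.10 without diabetic replicate 2. Against miR-202-3p, a miRNA of Sertoli and germ cells, it was -0.03 (exact permutation p = 0.9). miR-202-3p itself stood at 130 ± 12.7 against 150 ± 28.9 CPM. It is the scarcer arm of its hairpin, with 379 reads in all beside 9933 of miR-202-5p. miR-202-5p was higher in mean in the diabetic group, and no ratio to miR-202-5p was taken. Against miR-142-3p, a white blood cell miRNA, the difference had the opposite sign, 0.24 (exact permutation p = 0.4). It was 0.40 without normal replicate 1 and 0.13 without normal replicate 2. miR-142-3p itself stood at 303.7 to 363.4 CPM in the diabetic and 394.4 to 521.7 CPM in the normal libraries. Both terms of this ratio were therefore lower in each diabetic library than in any normal one. All 5 adjusted p-values were 0.5 or above, and 3 against 3 libraries cannot give an adjusted p under 0.1.

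**Figure D4:**
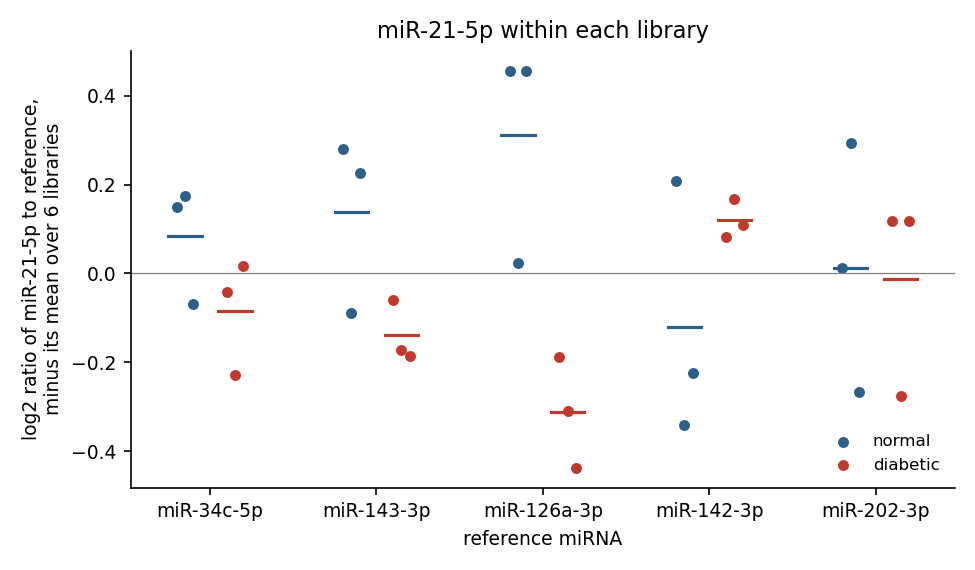
Log2 ratio of miR-21-5p to each of 5 reference miRNAs in each library, with the mean over the 6 libraries subtracted for each reference, for normal (blue) and diabetic (red) libraries; lines mark group means. The groups are apart for miR-126a-3p and overlap for the other references.

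miR-21-3p, the passenger strand, was barely detected. It had 2, 2 and 0 reads in diabetic replicates 1, 2 and 3 and 1, 0 and 3 reads in normal replicates 1, 2 and 3, equal to 6.5, 5.4 and 0 CPM and to 2.3, 0 and 5.7 CPM. Every library was at or under the floor of 3 reads used here, and each group held 1 library with 0 reads. No fold change is given for this arm, since both groups were at or under that floor (exact permutation p = 0.8 on CPM). By mean CPM it ranked 499 of 721. In the diabetic replicate with 0 reads the exact 95% interval allows up to 0.0151% of the miR-21 reads to come from the 3p arm, and in the normal replicate with 0 reads up to 0.0154%. With 3 reads as the limit that a count of 0 allows, these bounds were 0.0123% and 0.0125%.

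The arm ratio followed from these counts. In the 4 libraries with a 3p read, miR-21-5p had 6929 and 7485 reads for each 3p read in diabetic replicates 1 and 2, and 23696 and 8543 in normal replicates 1 and 3. Over the 6 libraries the arms held 126490 and 8 reads, or 15811 reads of the 5p arm for each read of the 3p arm. The 3p arm thus gave 0.00632% of miR-21 reads (exact 95% interval 0.00273% to 0.0125%). By group there were 4 reads of the 3p arm beside 53259 of the 5p arm in the diabetic libraries, and 4 beside 73231 in the normal libraries. A difference in arm use between the groups was not detectable at this depth. Of the 127 hairpins whose arm ratio could be fitted in limma, 1 (0.787%) had an adjusted p under 0.05. It was let-7g, whose 3p arm held 8 reads in all, and it is named here after its values were seen. The adjusted p of miR-21 in that fit was 0.900.

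Among hairpins with both arms listed, miR-21 was one of the most one-sided. By names that differ only in the arm, the table listed both arms of 178 hairpins, of which the 5p arm was the more abundant in 95. Entries without a partner of that kind were left out, among them the abundant miR-125b-5p and miR-181a-5p. The minor arm took a median of 6.05% of a hairpin's reads, against 0.00632% for miR-21. Only 3 hairpins had a smaller minor-arm share: miR-26a with 58086 reads of its 5p arm and 1 of its 3p arm, miR-99a with 76058 and 2, and miR-741 with 4 and 105595. All 4 were abundant, and only abundant hairpins can show so small a share. Among the 33 hairpins with at least 10000 reads the minor arm took from 0.00172% to 39.3%, with a median of 0.450%, and miR-21 ranked 4 from the lowest. Counts this small leave the order of the 4 hairpins unsettled, and do not set them apart from those that follow. The minor-arm shares of let-7g, 0.0113%, and miR-100, 0.0116%, lay within the exact 95% interval of miR-21 (0.00273% to 0.0125%).

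**Figure D5:**
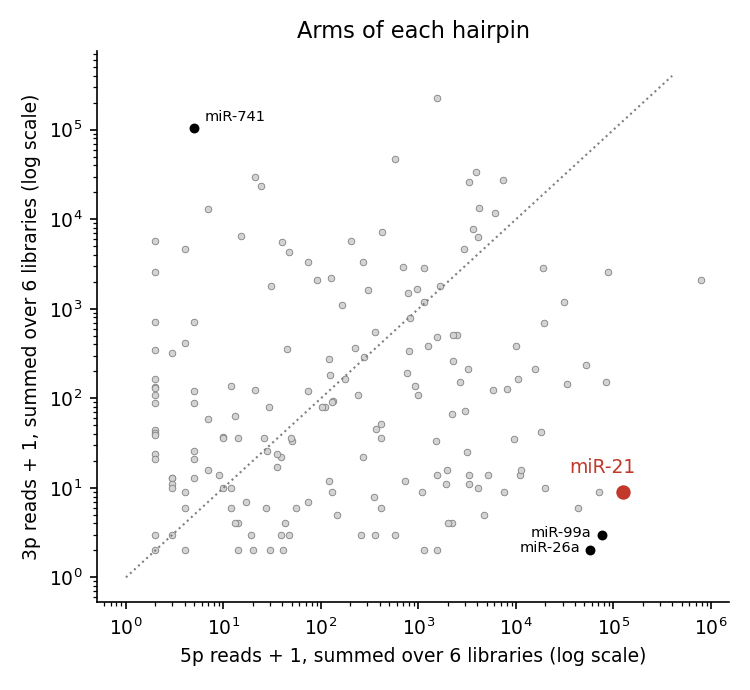
Reads of the 3p arm against reads of the 5p arm, each summed over the 6 libraries with 1 added (log scales), for the 178 hairpins with both arms listed; the dotted line marks equal arms. miR-21 (red) lies at 126490 reads of the 5p arm and 8 of the 3p arm, beside miR-99a and miR-26a and opposite miR-741 (black).

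Other miRNAs linked with the known roles of miR-21 were examined as 3 lists. Of 10 miRNAs linked with spermatogonial stem cells, all were tested and 0 passed the adjusted threshold. Before adjustment 2 were higher in the diabetic group and 1 was lower at p under 0.05, beside 5.54% and 3.29% of all 578 miRNAs. In limma without the trend 0 members were. The list holds miR-34c-5p and both arms of miR-202, which stand elsewhere here for other cell types, so the lists share members. The median log2 change of the list was -0.12, beside 0.0046 over all 578 miRNAs, and moved to -0.07 without diabetic replicate 3 and -0.08 without normal replicate 1. miR-221-3p, which helps to keep spermatogonia undifferentiated, had 1342, 1521 and 1258 CPM in the diabetic and 1108, 1147 and 1087 CPM in the normal libraries. Its groups did not overlap, with a log2 difference of 0.30 (SE 0.12, adjusted p 0.406 in limma). How many of all 578 miRNAs had groups apart with diabetic above normal was not counted. miR-202-5p stood at 4107 ± 188 against 3340 ± 236 CPM, a log2 difference of 0.30 (SE 0.10, adjusted p 0.348 in limma). miR-20a-5p, of the miR-17-92 cluster, was the member on the lower side, at 6763 ± 594 against 7950 ± 847 CPM, a log2 difference of -0.23 (SE 0.10, adjusted p 0.492 in limma). Its groups overlapped.

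In the list of 10 stress and inflammation miRNAs, 0 had an adjusted p under 0.05 and 0 an unadjusted p under 0.05. With DESeq2 size factors, TMM factors, the total without miR-34c-5p, edgeR or DESeq2, 1 member was lower at an unadjusted p under 0.05. Of its members 6 had a log2 change above 0 and 4 below. The median was 0.13, but 0.01 over the 8 members with at least 10 reads in every library, 0.07 without diabetic replicate 1, -0.02 without diabetic replicate 2 and -0.03 without normal replicate 1, so its sign was not stable. miR-155-5p, an immune-response miRNA, stood at 41.4 ± 6.26 against 32.5 ± 7.21 CPM. miR-146a-5p, which restrains inflammatory signalling and also belongs to the first list, stood at 1146 ± 25.6 against 1305 ± 179.9 CPM. The groups of both overlapped. The groups of miR-125b-5p, at 11704 ± 608 against 13206 ± 1179 CPM, did not overlap (log2 difference -0.17, adjusted p 0.634 in limma).

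In the list of 10 fibrosis miRNAs, also 0 had an adjusted and 0 an unadjusted p under 0.05, 6 were above 0 and 4 below, and the median log2 change was 0.05. miR-29a-3p, which targets collagen transcripts, stood at 11579 ± 858 against 10600 ± 497 CPM, and miR-199a-5p at 2376 ± 356 against 2102 ± 283 CPM. The groups overlapped for both. The median of this list was -0.0017 with TMM factors, -0.08 without diabetic replicate 1 and -0.0080 without normal replicate 1, so its sign was not stable.

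Lists of miRNAs linked with certain cell types, some with more than 1, were summed to show what moved beside miR-21-5p. No miRNA of these lists had an adjusted p under 0.05 in the reported limma fit. The endothelial pair (miR-126a-3p and miR-126a-5p) took 1.17% to 1.38% of reads in the diabetic and 0.866% to 1.11% in the normal libraries, and the pair of Sertoli and germ cells (miR-202-3p and miR-202-5p) 0.410% to 0.447% against 0.326% to 0.369%. In that last pair only the far more abundant miR-202-5p was higher in mean, and miR-202-3p was lower. The miR-741 list took 9.59% to 10.5% against 8.75% to 9.10%. Of its 27 entries 25 were found by name in RefSeq, 20 of them on the X chromosome. Its most abundant member, miR-741-3p, stood at 40118 to 45080 against 35878 to 36868 CPM. Of the 23 tested entries of this list, 15 had a log2 change above 0 and 8 below. The sums of these 3 lists were higher in each diabetic library than in any normal one (exact permutation p = 0.1 for each, the smallest possible). The share of all tested miRNAs apart in that direction was not counted, so these sums have no background beside them. miR-122-5p, a liver miRNA, took 0.0936% to 0.137% against 0.184% to 0.279%, lower in each diabetic library. miR-122-5p had an adjusted p under 0.05 with a minimum of 10 reads in every library, no filter, TMM factors, upper-quartile factors, the replicate block, edgeR and DESeq2. The 4 white blood cell miRNAs took 0.0495% to 0.0652% against 0.0592% to 0.0762%, and the 4 red blood cell miRNAs 0.0544% to 0.0782% against 0.0678% to 0.0741%, with overlap in both. The 4 miRNAs of smooth muscle and peritubular cells took 8.60% to 9.60% against 7.93% to 9.74%, the 6 of meiotic and later germ cells 31.2% to 33.4% against 30.7% to 35.6%, and the 6 epithelial ones 0.0102% to 0.0141% against 0.0127% to 0.0156%, again with overlap. Of all these entries, 0 had 0 reads in every library. The part of these cell types in the lower miR-21-5p level was not tested.

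The miRNAs whose levels ran most like that of miR-21-5p were found by Pearson correlation of log2(CPM + 1) over the 6 libraries, among 256 others with at least 10 reads in every library. The points share the library, its depth and its group, so the correlation is a description. The 5 highest lay between 0.833 and 0.962, beside a median of -0.04 over the 256. miR-34b-3p, a germ-cell miRNA, came first at 0.962, with 4796, 4435 and 4941 CPM in the diabetic and 5485, 5244 and 5014 CPM in the normal libraries. Its lowest and highest libraries were those of miR-21-5p, diabetic replicate 2 and normal replicate 1. miR-547-3p stood at 15615, 15240 and 17132 CPM against 18655, 18458 and 17896 CPM, with a correlation of 0.867. miR-224-5p stood at 191 ± 3.41 against 231 ± 45.7 CPM, with normal replicate 1 apart at 283 CPM and a correlation of 0.833. For these 3 the groups were apart, with diabetic below normal, beside 6.92% of all 578 tested miRNAs. They were chosen for likeness to miR-21-5p, whose groups were also apart, so this follows in part from the choice. Their limma adjusted p-values ran from 0.486 to 0.774. The other two were predicted entries with no gene name, 2_7622 at 0.878 and 4_15389 at 0.851, both lower on average in the diabetic group and both with overlapping groups.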

How the data were processed

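Small RNA was sequenced from 3 diabetic and 3 normal rat testis samples. The authors removed adaptors, counted small RNAs, annotated known miRNAs with miRBase and expressed abundance as CPM. The submitters' processing notes list Bowtie 0.12.2, HISAT2 2.0, StringTie 1.3.0 and the mouse build mm8 without a role, and the aligner of these reads, the rat build and the miRBase release are not given in the sources used here. The series design describes miRNA profiling, which was followed, although the extraction protocol given with the samples is one for poly(A) mRNA. The deposited values are CPM rounded to 1 decimal by the authors, under headings that call them TPM. In each library 100% of values were whole reads within 0.05 CPM, at 1.82 to 3.27 CPM per read.

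The main test was limma 3.58.1 in R 4.3.3 (eBayes with a mean-variance trend, two-sided, Benjamini-Hochberg) on log2(CPM + 1) over all miRNAs that reached 1 CPM in 3 or more libraries, with no covariate. The pseudocount understates changes of scarce miRNAs. Arm ratios were fitted likewise over hairpins whose arms both passed that filter. Single values were compared by exact permutation (scipy 1.17.1), and intervals of shares are Clopper-Pearson. The code was tested on simulated data. Alternatives were a pseudocount of 0.1, no trend, a minimum of 10 reads in every library, no filter, 4 other scalings, edgeR 4.0.16 and DESeq2 1.42.0 on recovered reads, a replicate block and leaving out each library.

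The members and lists were chosen with earlier results of these data known. Named miRNAs were the arms of miR-21, up to 3 neighbours on each side in rank, the 5 most correlated and members of the lists. miR-26a, miR-99a, miR-100 and let-7g were named after their values were seen. Sequences came from RefSeq (GRCr8) by name, where 492 of the 539 known entries matched. No coordinates are given, since no rat build is named. Hairpins were folded with RNAfold 2.7.2.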

Additional observations from a re-analysis of the deposited data

How the results depend on the processing

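The lower level of miR-21-5p kept its sign in 17 of 17 alternatives, from -0.26 to -0.16 on the log2 scale, with adjusted p-values from 0.338 to 0.836 (limma, edgeR or DESeq2). The unadjusted p was under 0.05 in 14 of them. It was 0.227 in limma without the trend, 0.0955 without diabetic replicate 2 and 0.125 without normal replicate 1. Its median rank was 3 also with all libraries thinned to 305476 reads. Log2 differences of its share ranged from -0.25 to -0.16 without one library. Depth limited miR-21-3p and the arm ratio, for which at least 10 reads in every library left no value. With one library left out, the fitted change of miR-21-3p, which is no fold at these counts, ran from -0.37 to 1.304 (0.37 with all libraries), and that of the arm ratio from -1.53 to 0.14 (-0.58 with all). The log2 ratio to miR-202-3p ran from -0.17 to 0.11, to miR-34c-5p from -0.25 to -0.10 and to miR-142-3p from 0.13 to 0.40.

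Counts of miRNAs with an adjusted p under 0.05, 0 in the reported fit (51 at an unadjusted p under 0.05), were 8 without the trend, 2 with edgeR, and 1 each with no filter, at least 10 reads, TMM factors, upper-quartile factors, DESeq2 and the replicate block, and ran from 0 to 1 without one library. miR-122-5p was among the calls of these alternatives, but not without the trend or without any one library. The cause was not tested. Same-numbered libraries did not deviate together (r = 0.0065, -0.07 and -0.09 over 257 miRNAs). With the replicate block the change of miR-21-5p was -0.21 (limma adjusted p = 0.475), that of miR-21-3p 0.37 and that of the arm ratio -0.58, and the block changed no call of these.

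Small changes of the neighbours in rank turned sign. miR-449a-5p (0.01) moved to -0.0184 with DESeq2 size factors, -0.0366 with TMM factors, -0.0051 without miR-34c-5p in the total, -0.0149 with edgeR and -0.0188 with DESeq2, and miR-30a-5p (0.05) to -0.00058 with TMM factors. Without one library miR-449a-5p ran from -0.0062 to 0.0429, miR-30a-5p from -0.0822 to 0.183, miR-34c-5p from -0.110 to 0.0090 and miR-143-3p from -0.0032 to 0.157. The list counts at an unadjusted p under 0.05 ran from 1 to 3 (spermatogonial stem cells), 0 to 1 (stress) and 0 to 2 (fibrosis) without one library.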
